A study of Mus musculus with 6 samples.

Results

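Neuropeptide precursors are secreted proteins that are cut into short signalling peptides, and 10 of their genes were examined here in the testis. They were the tachykinin genes Tac1, Tac2 and Tac4, the opioid genes Penk, Pdyn and Pomc, and Qrfp, Adcyap1, Vip and Npy, found in the table by gene symbol. The set was selected on the measured difference between the genotypes, in which Tac1 and Qrfp were higher in the mutant, so the members' differences are described below without a test. Of the 10 genes, 9 had a row in the table of 36652 genes. The expression of Vip was not analysed here.

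The RNA came from testes of mice aged 8 weeks, and 3 libraries were labelled Ccdc117ko and 3 WT. The title links deficiency of Ccdc117 to a compensatory hyperandrogenism. The labels give neither the allele nor the strain, and do not say whether each replicate was its own animal. The p-values below therefore reflect only how far these libraries lie apart, which may be technical. The libraries held 35791616 to 43461692 reads assigned to genes. Normalized counts are these reads divided by a size factor of each library, as deposited on a log2 scale, and a gene is called where the limma adjusted p is under 0.05. Ccdc117 itself had 3478, 3772 and 3908 normalized counts in the libraries labelled Ccdc117ko, against 3657, 3826 and 3931 in those labelled WT. These totals overlapped and cannot show the loss of a small piece of the gene, so they do not check the genotype, and every direction below is that of the labels. Transcripts of spermatids, the late germ cells of the testis, were abundant under both labels, with 8 marker genes summing to 464959 to 510503 normalized counts per library labelled Ccdc117ko and 446318 to 499367 per library labelled WT.

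A neuropeptide precursor passes through the secretory pathway, where convertases cut it at pairs of basic residues, carboxypeptidases trim the ends, and some products are amidated or closed into a pyroglutamate. The released peptides act on G protein-coupled receptors of nearby cells and are broken down by peptidases at the cell surface. Besides their roles in the nervous system, enkephalin and pro-opiomelanocortin transcripts are known from rodent testis, where germ cells and Leydig cells have been named as their sources.

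The tachykinin precursor Tac1 was the most different of the abundant members. Tac1 (ENSMUSG00000061762), which encodes substance P and neurokinin A, lies on the plus strand of chromosome 6 from 7554879 to 7565834 in mm10. It had 268, 254 and 286 normalized counts in the libraries labelled Ccdc117ko, against 157, 166 and 161 in those labelled WT. Every library labelled Ccdc117ko was above every library labelled WT. Tac1 averaged 269 ± 16.1 in Ccdc117ko and 161 ± 4.31 in WT (SD, n = 3 each), a ratio of 1.67 and a difference of 0.73 on the log2(normalized count + 1) scale. Of the 22878 genes whose mean reached 10 normalized counts, 1.49% had a log2 change at least as high.

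Qrfp (ENSMUSG00000043102) was seen only in libraries labelled Ccdc117ko, at a very low level. Its product is cut into the pyroglutamylated RFamide peptide, a hypothalamic peptide tied to feeding, and the gene occupies 31806166 to 31810580 of chromosome 2 on the minus strand. It had 6, 9 and 6 reads in the libraries labelled Ccdc117ko, and 0, 0 and 0 reads in those labelled WT. The mean in Ccdc117ko was 7.06 ± 1.80 normalized counts (SD, n = 3). Against a floor of 3 reads over the WT group, the mean was at least 7.15-fold higher, a bound that allows for counting error in WT only. Among all genes with a row, 69 genes, 0.188%, had no read in any WT library and at least 1 in every Ccdc117ko library, and 100 genes, 0.273%, showed the opposite.

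Promoter windows of 300 bases from RefSeq (GRCm38.p6), reaching from 250 bases before to 50 after the annotated start, were found for 9 of the 10 members, Penk being the exception. Those of Tac1 and Qrfp are printed because these genes stood furthest apart between the labels. The windows were searched on both strands for the cAMP response element TGACGTCA and its shorter cores TGACG and CGTCA, which overlap within it, since peptide genes are known targets of cAMP signalling. Capitals mark the cores. The Tac1 window is at chr6:7554811-7555110 on the plus strand, and the Qrfp window at chr2:31810531-31810830 on the minus strand.
Tac1: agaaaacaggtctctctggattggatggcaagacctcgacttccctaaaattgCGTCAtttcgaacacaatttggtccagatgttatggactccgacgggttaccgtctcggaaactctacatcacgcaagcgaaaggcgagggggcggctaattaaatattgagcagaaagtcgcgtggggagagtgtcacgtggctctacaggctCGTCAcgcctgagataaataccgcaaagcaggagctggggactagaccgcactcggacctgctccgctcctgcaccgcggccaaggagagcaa
Qrfp: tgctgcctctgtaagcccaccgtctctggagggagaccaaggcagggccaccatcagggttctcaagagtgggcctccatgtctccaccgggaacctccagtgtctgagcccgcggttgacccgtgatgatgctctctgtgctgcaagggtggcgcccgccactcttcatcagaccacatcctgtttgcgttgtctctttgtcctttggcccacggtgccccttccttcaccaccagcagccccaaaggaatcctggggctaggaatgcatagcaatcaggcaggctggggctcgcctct
The Tac1 window held 2 cores, beginning at positions -197 and -43 from the RefSeq start, and the Qrfp window held none. That Tac1 start lies inside the gene as placed above, and so does the core at -43. Adcyap1 and Vip also had cores, and no member had the full element. Of all 32851 promoter windows, 20.8% held at least 1 core, 5.01% held 2 or more, and 1.79% held the full element. These are matches of letters, and say nothing of binding in these testes.

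Penk had by far the highest level per kilobase of the precursors, as given below, and differed by a small amount with little spread. Penk (ENSMUSG00000045573), the precursor of the enkephalins, occupies 4133531 to 4138819 of chromosome 4 on the minus strand. Its normalized counts were 5719, 5698 and 5844 in the libraries labelled Ccdc117ko, against 5003, 5041 and 4976 in those labelled WT. The groups did not overlap, and the gap between the lowest Ccdc117ko and the highest WT library was several times the range within either group. Penk averaged 5754 ± 79.0 in Ccdc117ko and 5007 ± 32.6 in WT (SD, n = 3 each), a ratio of 1.15 and a log2 difference of 0.20. A log2 change at least as high was found in 20.1% of genes whose mean reached 10. With a trend of each library with transcript length and GC content removed, the log2 difference of Penk was 0.15.

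Pomc, which encodes the common precursor of corticotropin, the melanocortins and beta-endorphin, overlapped between the genotypes. Pomc (ENSMUSG00000020660, plus strand of chromosome 12 from 3954951 to 3960642) had 473, 536 and 437 normalized counts in the libraries labelled Ccdc117ko, against 440, 453 and 387 in those labelled WT. The lowest Ccdc117ko library was under 2 of the WT libraries. The means of 482 ± 49.7 in Ccdc117ko and 427 ± 34.8 in WT (SD, n = 3 each) differed by 55.3, close to the spread between replicates, with a log2 difference of 0.17.

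**Figure D1:**
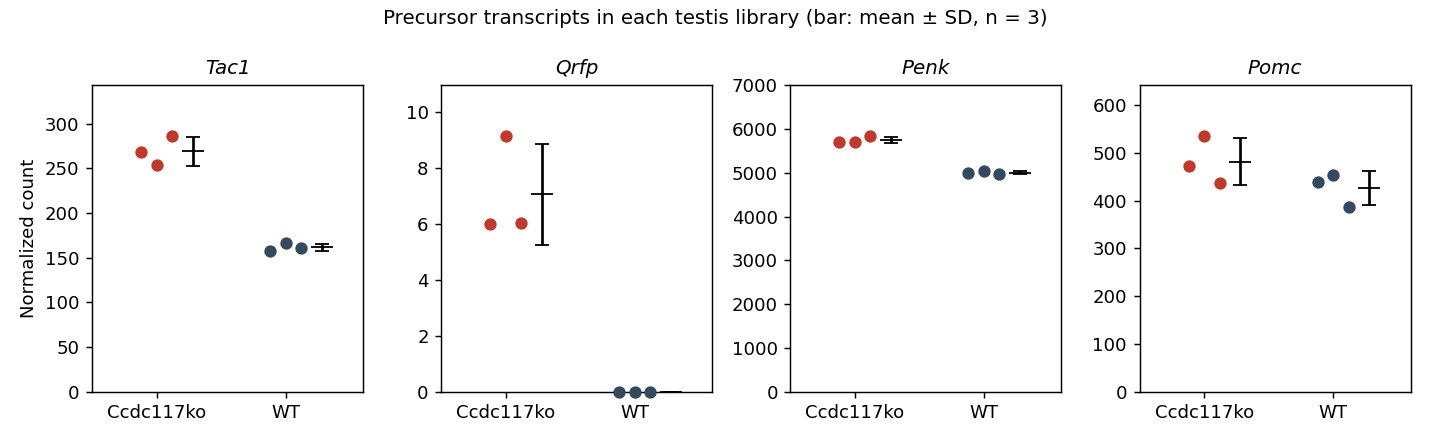
Normalized counts (vertical axes, each from 0) of Tac1, Qrfp, Penk and Pomc in the 3 libraries labelled Ccdc117ko (red) and the 3 labelled WT (dark blue), with each point a library and black bars the mean ± SD. The groups of Tac1, Qrfp and Penk do not overlap, while Pomc runs from 437 to 536 in Ccdc117ko and from 387 to 453 in WT.

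The remaining members were at the limit of detection. Tac4, which encodes the tachykinin hemokinin, had 2, 0 and 0 reads in the libraries labelled Ccdc117ko and 2, 0 and 4 in those labelled WT. Tac2, the neurokinin B precursor, had no read in Ccdc117ko and 0, 0 and 2 in WT. Npy, a neuropeptide of sympathetic nerves, had no read in Ccdc117ko and 0, 0 and 5 in WT. Pdyn, the dynorphin precursor, had 2, 0 and 0 reads in Ccdc117ko and none in WT. Adcyap1, which encodes the pituitary adenylate cyclase-activating peptide, had 2, 0 and 0 reads in Ccdc117ko and 0, 2 and 0 in WT. Each of these 5 genes had fewer than 10 reads over the 6 libraries, so no fold is given for them. A library with no read allows up to 3 reads, which is 2.69 to 3.26 normalized counts at these depths. Reads are not marked by molecule, so such limits cover counting error only.

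Over the 9 genes, 7 passed the filter of a mean of at least 0.5 normalized counts, and Tac2 and Pdyn did not. Tac1, Qrfp and Penk had no overlap and were higher in the libraries labelled Ccdc117ko, and none of the 9 was lower without overlap. Of all 32783 tested genes, 27.0% had no overlap, with 13.7% higher and 13.3% lower. Of the genes whose mean reached 10, where Tac1, Penk and Pomc lie, 34.5% had no overlap, with 17.3% higher and 17.2% lower. The members were picked with this difference in view, so nothing is read from their count.

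Per length, the levels of the members fell into 2 tiers. Penk averaged 3971 ± 54.5 normalized counts per kilobase of its longest transcript in Ccdc117ko and 3455 ± 22.5 in WT (SD, n = 3 each). Pomc averaged 462 ± 47.7 and 409 ± 33.3, and Tac1 136 ± 8.17 and 81.8 ± 2.18 per kilobase in Ccdc117ko and in WT. These 3 genes kept the same order in every library, and each step between neighbours was larger than the spread between replicates. Over all libraries Penk was 8.53 times Pomc per kilobase, and Pomc 3.99 times Tac1. Penk stood above 97.1%, Pomc above 81.2% and Tac1 above 63.3% of the 32704 tested genes with an annotated length. The mean levels of the other 6 lay between 0.140 (Pdyn) and 1.45 (Npy) per kilobase, and rest on 2 to 21 reads per gene, so the order among them is not resolved. The longest Tac1 transcript carries no coding sequence. With the longest coding transcript its mean level was 175 per kilobase, against 109 with the longest transcript and 63.4 over the union of its exons, and Tac1 stayed below Pomc each time.

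**Figure D2:**
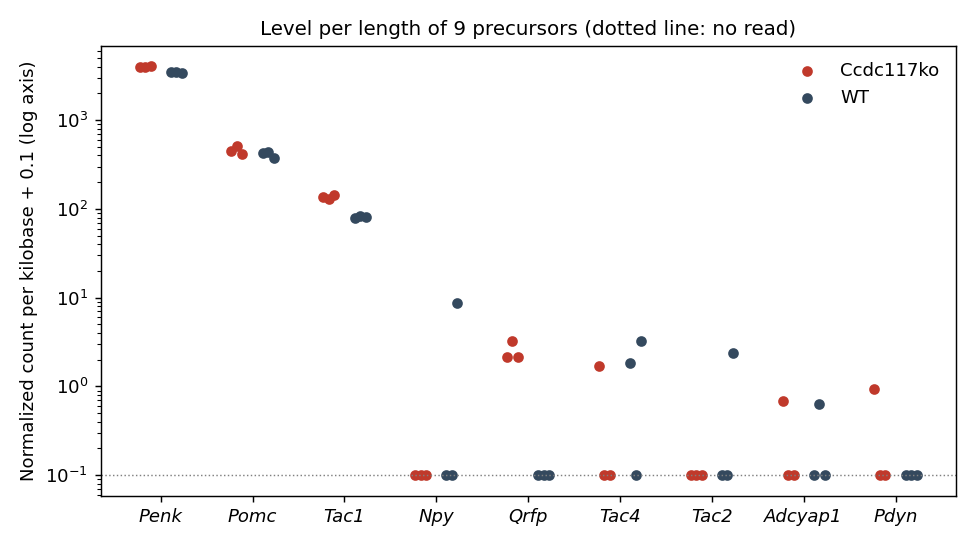
Normalized counts per kilobase of the longest transcript plus 0.1 (log axis) for the 9 precursor genes with a row, ordered by mean level, with each point a library labelled Ccdc117ko (red) or WT (dark blue) and the dotted line marking no read. Penk, Pomc and Tac1 form the upper tier, and the other 6 genes have at least 1 library on the dotted line.

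Among the abundant members, Penk varied least between libraries. Its SD was 1.37% of the mean in Ccdc117ko and 0.651% in WT, where the counting of reads alone would give 1.32% and 1.40%. For Tac1 the SD was 5.99% of the mean in Ccdc117ko and 2.67% in WT, against 6.12% and 7.79% from counting alone. For Pomc it was 10.3% and 8.15%, against 4.57% and 4.80% from counting. The spread of Penk and Tac1 was thus near or below that of counting, and that of Pomc was above it.

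The profile of Tac1 over the 6 libraries was closest to that of Penk, and the reverse also held. Among 16468 other genes averaging 10 normalized counts or more, predicted genes left out, Pearson's r with Tac1 on the log2 scale was 0.998 for Penk, 0.996 for Mos, a kinase of meiotic cells, and 0.995 for Puf60, a splicing factor. For Penk the closest after Tac1 were Slc38a9, a lysosomal amino acid sensor, and the ribosomal pseudogene Rpl36-ps3, both at 0.997, although the pseudogene may share reads with its parent gene. For Pomc they were Nudt1, which clears oxidized nucleotides (r = 0.999), Tssk6, a spermatid kinase (0.995), and Eef1e1 (0.990). With the genotype means removed, the order changed for Tac1, with r of 0.894 for Penk, 0.943 for Mos and 0.944 for Puf60. That between Pomc and Nudt1 was 0.999. These are descriptions over 6 libraries that share the genotype contrast, drawn from the top of many genes.

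The members lie apart in the genome and, with 1 exception, overlap no other annotated gene. Penk shares 233 exonic bases with A830012C17Rik, a noncoding gene on the opposite strand. That gene had 23.0, 11.2 and 12.1 normalized counts in the libraries labelled Ccdc117ko and 14.1, 17 and 15.7 in those labelled WT. The groups of this partner overlapped, and each of its counts was far below those of Penk. Whether counting used strand is not known, so reads from the shared bases cannot be assigned to either gene.

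The receptors of these peptides were few and low, and 1 of them rose. Npy6r, a receptor of the neuropeptide Y and pancreatic polypeptide family, had 21.0, 18.3 and 25.2 normalized counts in the libraries labelled Ccdc117ko, against 7.60, 9.87 and 6.88 in those labelled WT. The groups did not overlap. Its log2 change was 1.31 (SE 0.29, limma adjusted p = 0.0386), a ratio of 2.65 between the means. Of the 20 listed receptors 15 had a row and 13 were tested. Of these 1 was higher, none lower and 12 not called, where 6.80% of all tested genes were called, 3.70% higher and 3.10% lower. Their median log2 change was 0.03, against 0.00 over all tested genes.

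Receptors of the other members gave no call. Tacr2, the receptor preferred by neurokinin A, averaged 27.9 ± 13.6 normalized counts in Ccdc117ko and 31.4 ± 8.93 in WT (SD, n = 3 each), with a log2 change of -0.26 (limma adjusted p = 0.767). Tacr1, the receptor preferred by substance P, had 3.0, 0 and 0 in Ccdc117ko and 4.34, 6.28 and 0 in WT. The delta opioid receptor gene Oprd1, whose product binds enkephalins, averaged 34.6 ± 6.19 and 25.3 ± 8.80 in Ccdc117ko and in WT (log2 change 0.49, adjusted p = 0.41). Oprm1, the mu receptor, had 1 read in a single Ccdc117ko library and none in WT. Vipr1, which binds the vasoactive and adenylate cyclase-activating peptides, was at 37.6 ± 2.78 in Ccdc117ko and 31.8 ± 1.63 in WT without overlap, but its log2 change of 0.23 did not pass (adjusted p = 0.518). Adcyap1r1 (log2 change 0.03) and Npy1r (-0.22) overlapped between the groups. The receptor of the Qrfp peptide, Qrfpr, was not analysed here.

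Of 16 genes for peptide-making enzymes and their helper proteins, 1 rose and 1 fell, where 6.80% of all tested genes were called, so 2 of 16 is no result about the list. Their mean levels ran widely, with 12.7 normalized counts per kilobase for Pcsk1 and 39.6 for Pcsk2, the convertases of neuroendocrine cells, and 3715 for Pcsk4. Pcsk4, a convertase made in germ cells and needed for normal fertility of male mice, rose to 11201, 11489 and 11157 normalized counts in the libraries labelled Ccdc117ko, against 9427, 9306 and 9212 in those labelled WT. The groups were well separated, with a log2 change of 0.28 (SE 0.03, limma adjusted p = 0.0108). Cpd, a carboxypeptidase that trims basic residues, fell to 1023, 1147 and 1096 in Ccdc117ko, against 1338, 1280 and 1274 in WT. Its log2 change was -0.25 (SE 0.06, adjusted p = 0.0392), and -0.12 (adjusted p = 0.319) once trends with transcript length and GC were removed. Of the 16, 7 had an unadjusted limma p under 0.05, as had 7436 of all 32783 tested genes. Without overlap 1 was higher and 5 were lower, where 13.7% of all tested genes were higher and 13.3% lower. The other 14 genes were not called, and the median of the 16 was -0.10. Among them was Qpct, whose product closes the pyroglutamate of peptides such as that of Qrfp, at 1211 ± 34.2 in Ccdc117ko and 1385 ± 43.0 in WT (SD, n = 3 each), with an adjusted p of 0.0534. It passed when only genes whose mean reached 10 were tested (adjusted p = 0.0347) and with length and GC trends removed (0.0318).

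Among 9 granins and granule proteins, none was called by limma. An unadjusted limma p under 0.05 was found for 7436 of all 32783 tested genes and for 1 of these 9. Limma-voom on the recovered reads called 1. That gene was Chga, chromogranin A, with 357, 431 and 351 normalized counts in the libraries labelled Ccdc117ko, against 460, 562 and 631 in those labelled WT. Its groups did not overlap, with a log2 change of -0.53 (SE 0.13, adjusted p = 0.0505), and the adjusted p was 0.0414 with limma-voom and 0.0095 when only genes whose mean reached 10 were tested. Chgb averaged 524 ± 35.9 in Ccdc117ko and 480 ± 65.2 in WT. The median of the list was -0.13.

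Of the 16 peptidases that break neuropeptides down, 1 rose and 1 fell, where 3.70% of all tested genes were higher and 3.10% lower. Both belong to the neprilysin family. Mme, neprilysin itself, which cleaves enkephalins and substance P, fell to 230, 257 and 267 normalized counts in the libraries labelled Ccdc117ko, against 360, 399 and 347 in those labelled WT. Its log2 change was -0.55 (SE 0.09, limma adjusted p = 0.0196), a ratio of 0.682. Mmel1, a neprilysin-like enzyme known from testis, rose to 7741, 8179 and 8562 in Ccdc117ko, against 7370, 6159 and 6402 in WT. Its log2 change was 0.30 (SE 0.07, adjusted p = 0.0452). Neither pair of groups overlapped. Per kilobase Mmel1 was at 2781 in Ccdc117ko and 2264 in WT, and Mme at 31.3 in Ccdc117ko and 45.9 in WT. The other 14 peptidases were not called, and the median of the list was -0.12. Of the 16, 7 had an unadjusted limma p under 0.05, as had 7436 of all 32783 tested genes. Ace was higher in Ccdc117ko without overlap, with a log2 change of 0.08 (adjusted p = 0.19). With length and GC trends removed, Ace passed (log2 change 0.20, adjusted p = 0.0177).

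**Figure D3:**
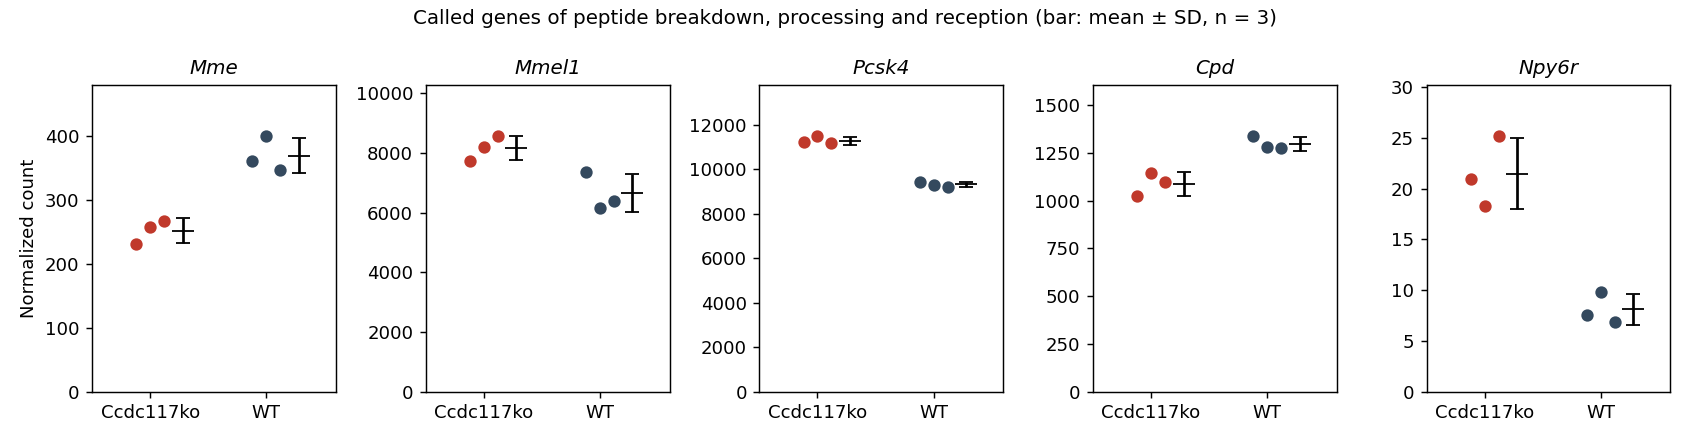
Normalized counts (vertical axes, each from 0) of the 5 called genes of peptide breakdown, processing and reception in the 3 libraries labelled Ccdc117ko (red) and the 3 labelled WT (dark blue), with each point a library and black bars the mean ± SD. Mme and Cpd are lower and Mmel1, Pcsk4 and Npy6r higher in Ccdc117ko, with no overlap in any panel.

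These 5 calls were not equally firm. Without any 1 library all were lost, except Pcsk4 (limma adjusted p = 0.0344) and Mmel1 (0.0393) without WT replicate 1. With a pseudocount of 0.1 in place of 1, Mmel1 missed the threshold (0.0517). With the test limited to genes averaging 10 normalized counts or more, a setting added after the data were seen, Pcsk4, Mme and Mmel1 kept an adjusted p of at most 0.0099, 0.0178 and 0.0370 whichever library was left out, whereas Cpd lost its call without Ccdc117ko replicate 1 (0.0601) and Npy6r without Ccdc117ko replicate 1 (0.0627), 2 (0.0581) or 3 (0.0909) or WT replicate 3 (0.0750).

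Other peptide precursors gave no call. Of 57 further neuropeptide and peptide hormone genes 43 had a row, all were tested, and limma called 0 of them, as did limma-voom. An unadjusted limma p under 0.05 was found for 7436 of all 32783 tested genes and for 4 of these 43. The 4 were Hcrt and Nppc above 0 and Adm and Apln below 0. Those with the highest mean counts were Prok2, which encodes prokineticin 2, with 2251 ± 73.3 normalized counts in Ccdc117ko and 2050 ± 183 in WT (SD, n = 3 each; log2 change 0.14, adjusted p = 0.277), and Nucb2, the nesfatin precursor, with 743 ± 44.3 and 701 ± 49.1 in Ccdc117ko and in WT (log2 change 0.08, adjusted p = 0.559). Per kilobase Prok2 was at 1552 in Ccdc117ko and 1414 in WT, and so below Penk. The median log2 change of the 43 was 0.08.

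**Figure D4:**
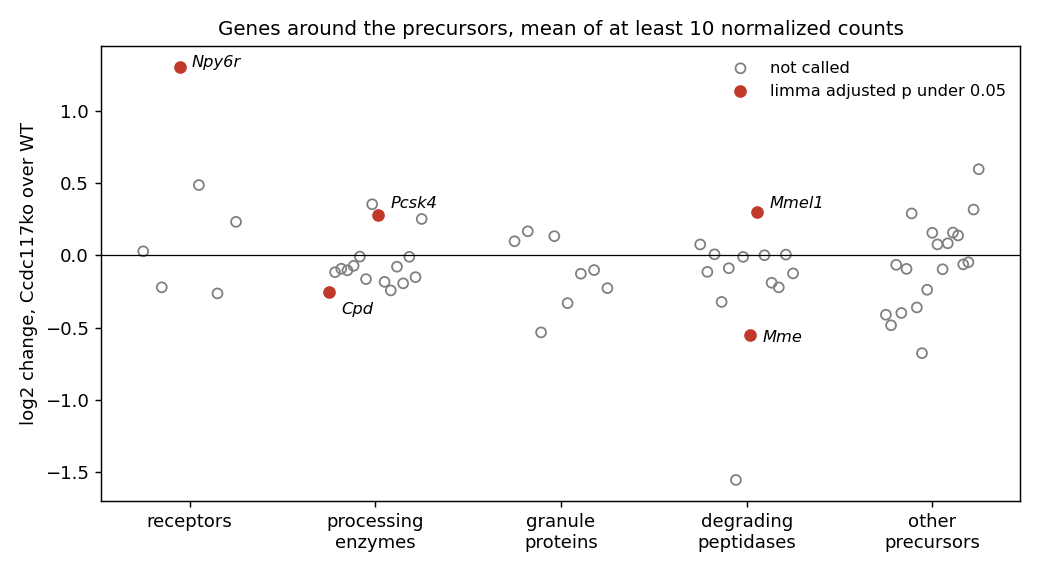
The log2 change of Ccdc117ko over WT (vertical axis) of genes averaging 10 normalized counts or more in 5 lists, with each point a gene and red points those called by limma at an adjusted p under 0.05. Called genes are Npy6r at 1.31, Pcsk4 at 0.28, Cpd at -0.25, Mmel1 at 0.30 and Mme at -0.55, and most other genes lie near 0.

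Whole testis was sequenced, so more cells of a type and more RNA per cell cannot be told apart for any of these genes, and markers of several cell types differed between the labels. Of 6 Leydig cell markers 3 were higher (Star, Hsd3b6 and Cyp17a1) and 1 lower (Hsd3b1), and their sum was 78166 to 90876 normalized counts in Ccdc117ko and 65500 to 76008 in WT. Of 8 spermatid markers 3 were higher (Acrv1, Spaca1 and Catsper4) and none lower, with sums that overlapped. Of 5 spermatogonial markers Kit was lower, with sums of 1442 to 1466 in Ccdc117ko and 1895 to 1928 in WT. Of 6 Sertoli cell markers Wt1 and Cldn11 were lower, with sums of 5428 to 5733 and 6358 to 6465 in Ccdc117ko and in WT. Of 4 myoid cell markers Myh11 was lower, and of 5 macrophage markers Mrc1 was lower, with the others of both lists not called. The myoid sums were 3604 to 4024 in Ccdc117ko and 4064 to 4249 in WT. The macrophage sums were 1400 to 1622 in Ccdc117ko and 1784 to 1954 in WT. Of all tested genes 6.80% were called, 3.70% higher and 3.10% lower. No spermatocyte, pituitary, epididymis or fat marker was called. The fat marker sums were 15354 to 16146 in Ccdc117ko and 16501 to 18388 in WT. The part of these marker differences in the values of the precursors was not tested.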

How the data were processed

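Per the labels' protocols, stranded mRNA libraries were made from DNase-treated testis RNA and read on an Illumina HiSeq. STAR, DESeq2 and mm10 are named in the submitters' processing notes. How reads were counted, and whether by strand, is not given in the sources used here. Each row as the authors deposited it has a log2 value per gene and library, read here as log2(normalized count + 1) because, with the log undone, 100% of values under 500 reads are whole multiples of 1 step within 0.01. Those steps give whole reads. The p-values and fold changes in the authors' deposited table were not used.

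Limma-trend (limma 3.58.1, R 4.3.3) was fitted with genotype as the only term to the 32783 genes averaging 0.5 normalized counts or more, with two-sided p-values, Benjamini-Hochberg adjustment over all of them and 0.05 as the threshold. The design had been written for this unit. Steps were checked on simulated reads. Fold changes on this scale understate those of low genes.

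The members and all gene lists were chosen with earlier results of these data known. Named genes are the members, up to 4 called genes per list by adjusted p or the 2 most abundant, receptors with a mean of at least 10, and the 3 genes most like each abundant member (predicted genes left out). Tacr1, Oprm1, Pcsk1, Pcsk2, Qpct, Ace, Hcrt, Nppc, Adm, Apln and the marker genes were named after their values were seen. Lengths, GC and positions came from GENCODE M21 (GRCm38), which matched 36551 genes. Replicates of a genotype differed by a chi-square of 4.43 to 7.00 per degree of freedom, so none was a duplicate. Planned searches of the precursor proteins were not run.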

Additional observations from a re-analysis of the deposited data

How the results depend on the processing

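The log2 differences of Tac1, Penk and Pomc kept their sign in all 33 alternatives, running from 0.68 to 0.77, from 0.15 to 0.22 and from 0.09 to 0.24. The number of genes called by limma (2228) was 3798 with the test limited to genes averaging 10 counts or more. Leaving out single libraries gave 6 to 1268 calls (1268 without WT replicate 1 and 6 to 22 without each other library), and 1714 to 4021 with that limit, a combination chosen after the data were seen. With length and GC trends removed, 1317 genes were higher and 574 lower, against 1212 and 1016.

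Without single libraries, the processing enzymes and the peptidases had 0 to 1 calls, and the receptors, granule proteins and other precursors 0. The leave-out fits limited to genes averaging 10 counts or more gave 0 to 1 for the receptors and 1 to 3 for the processing enzymes. They gave 1 for the granule proteins, 2 to 3 for the peptidases and 0 to 1 for the other precursors. With all libraries, the granule list also had 1 call with that limit, with length and GC trends removed, with limma-voom and with no filter. The peptidases had 3 with length and GC trends removed, where Ace passed (limma adjusted p = 0.0177). They had 1 with a pseudocount of 0.1, where Mmel1 missed the threshold (limma adjusted p = 0.0517).

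Replicate numbers are shared by the genotypes, but same-numbered libraries did not deviate together (correlations of -0.0039 to 0.0061, against -0.0091 to 0.013 for other pairs), so they are not treated as pairs. With the replicate block 703 genes were called, with 0 receptors, 1 processing enzyme and 0 peptidases. Pcsk4 was called (adjusted p = 0.0457), and Mme (0.0502), Cpd (0.0918), Mmel1 (0.0958) and Npy6r (0.0984) were not. Depth limits Qrfp and the 5 members with fewer than 10 reads, for which no direction can be given among the 5.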

Other observations

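Neuropeptide genes are classically expressed in nerves and in chromaffin cells, and some of the markers listed for those tissues were detected here. The 14 nerve and Schwann cell markers with a row summed to 696 to 740 normalized counts in the libraries labelled Ccdc117ko and 743 to 927 in those labelled WT. Of these, Mbp, a myelin protein gene, fell to 62.0, 73.2 and 80.6 in Ccdc117ko, against 114, 151 and 159 in WT (log2 change -0.96, SE 0.17, limma adjusted p = 0.0224), and the other 13 were not called. Without overlap 5 of the 14 were lower and 1 higher, where 13.3% of all tested genes were lower and 13.7% higher. The median log2 change of the 14 was -0.28. Gap43, a growth cone protein gene, was the higher one, with 12, 16.3 and 19.1 in Ccdc117ko against 0, 4.49 and 3.93 in WT. It did not pass (limma adjusted p = 0.067). Of 6 listed adrenal cortex and chromaffin markers 4 had a row, and Cyp11b1 and Mc2r did not. Of the 4 adrenal markers with a row, 3 averaged 10 normalized counts or more. The 4 summed to 417 to 487 normalized counts in Ccdc117ko and 574 to 738 in WT. Chga, with the values given above, is among them and made up most of these sums. It averaged 379 of 442 in Ccdc117ko and 551 of 663 in WT. Cyp21a1, a steroid 21-hydroxylase gene, was 51.0, 45.7 and 49.4 in Ccdc117ko, against 101, 101 and 96.3 in WT (log2 change -1.02, SE 0.13, limma adjusted p = 0.0135). Pnmt, the adrenaline-forming enzyme of chromaffin cells, was at 12.1 and 11.8 on average in Ccdc117ko and in WT. Mbp, Gap43, Cyp21a1 and Pnmt were named after their values were seen, and the part of nerve or adrenal RNA in the values of the precursors was not tested.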
